A study of Mus musculus with 21 samples.

Results

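H19, Igf2, Meg3, Dlk1, Peg3, Plagl1, Grb10, Peg10, Mest and Cdkn1c are 10 imprinted genes whose RNA was followed in murine pancreatic ductal adenocarcinoma (PDAC) cell lines before, during and after resistance to a MEK inhibitor. They were taken by symbol from a table of 34478 genes, in which 10 of 10 were found, and 10 of 10 passed the filter on low values (3 or more samples at 10 normalized counts or above), as did 19300 genes in all. Each of 6 primary lines, #3, #4, #6, #7, #9 and #10, was grown from a tumour of a genetically engineered mouse, with a genotype that all samples share, in which Cre from the Ptf1a locus (Ptf1awt/Cre) recombines conditional alleles in the pancreas, Trp53loxP/loxP among them. Parental cells had not met the drug (6 samples), resistant cells grew in trametinib, an inhibitor of the kinases MEK1 and MEK2, at 100 times the IC50 of their line (6 samples), and P5 (3 samples, lines #3, #7 and #9) and P12 (6 samples) are resistant cells kept for 5 or 12 passages without trametinib. For P5 of lines #7 and #9 one label gives 12 passages, and the name P5 is kept for both. There is 1 sample per line and state. The lines therefore serve as replicates, and the response of a single line could not be tested.

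The estimated depth lay between 24.1 and 42.7 M reads (M for mega) per sample, and 3 reads corresponded to 2.31 to 4.07 normalized counts, so that values below about 4 are at the limit of what the depth can show (counting error only). Of 7 markers of duct-type epithelium, Krt8, Krt18 and Krt19 were abundant in most samples, while Epcam was listed at 0 in 20 of the 21 samples. The summed level of the 7 markers ranged from 18363 to 283578 in parental and from 1693 to 210019 in resistant cells. Ptf1a, which defines the acinar lineage, stayed at 1.0 or less, and the sum of 5 acinar markers, mostly Cela1, ranged from 42.7 to 278 in parental, from 0 to 522 in resistant and from 88.1 to 950 in P12 cells. Ptprc, which marks leukocytes, stayed at 20 or less, while the sum of 4 immune markers ranged from 17.97 to 53.8 in parental and, through Csf1r, from 28.8 to 2544 in resistant cells. Some markers of fibroblasts and endothelium differed between states. The sum over 7 of 7 fibroblast genes ranged from 112 to 10431 in parental and from 1890 to 503995 in resistant cells. Medians rose for Dcn, Col1a1 (331 to 29184), Pdgfrb and Col1a2. They were close for Pdgfra (43.2 and 52.4) and Thy1 (17.4 and 21.3), and 0 in both states for Lum. The sum over 4 of 4 endothelial genes ranged from 36.8 to 166 and from 15.8 to 2753. Medians were 1.45 and 274 for Tek and 21.8 and 98.6 for Kdr, but 24.3 and 19.1 for Pecam1 and 0.35 and 0 for Cdh5. The part of these markers in the results below was not tested. In line #4 the Y-linked genes Ddx3y and Eif2s3y had 544 and 1125 normalized counts in parental cells and 12.1 or less in resistant and P12 cells, with Xist at 27.9 or less in its 3 samples. These samples enter the values of every gene. Only for Meg3 are the fold changes against parental cells and the shares of variation by line and state set side by side with and without line #4. Line #4 was also the 1 line in which Meg3 was higher in resistant than in parental cells, so this choice is not independent of the outcome. The spread of the changes over lines and the fit with the line as a block were not computed without line #4.

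Imprinted genes are expressed mainly from the maternal or the paternal copy, and which copy is active is set by control regions whose DNA methylation differs between the parental alleles. The methylation is laid down in the germ line and copied at each cell division, and Zfp57, a zinc finger protein, protects it by binding the methylated hexamer TGCCGC. Many of these genes steer fetal growth and are silenced in most adult tissues. Some share a control region: H19 and Igf2 compete for enhancers, Dlk1 and Meg3 lie in one cluster, Peg3 and Usp29 start back to back, and so do Peg10 and Sgce. Methylation itself was not analysed here, and neither the parental copies of a gene nor fewer expressing cells and less RNA per cell can be told apart in RNA from bulk cultures.

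The bases before the starts of 4 of these genes are shown because their RNA carried the main patterns: Peg3 and Meg3 were near 0 in resistant cells of some lines, Mest was lower after drug withdrawal, and Grb10 followed the cell line. The sequences are from RefSeq (GRCm38.p6), run 5′ to 3′ on the strand of the gene, and have CpG sites, the places of DNA methylation, in capitals. None of the bases shown lies in an exon of GENCODE M21. For Peg3 they are the 146 bases between its first exon and that of Usp29 on the other strand (chr7:6730432-6730577, minus strand):
Peg3: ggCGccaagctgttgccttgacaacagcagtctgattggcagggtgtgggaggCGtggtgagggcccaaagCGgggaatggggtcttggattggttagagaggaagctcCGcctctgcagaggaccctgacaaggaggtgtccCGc
For Meg3 they are the 250 bases before its start (chr12:109540746-109540995, plus strand):
Meg3: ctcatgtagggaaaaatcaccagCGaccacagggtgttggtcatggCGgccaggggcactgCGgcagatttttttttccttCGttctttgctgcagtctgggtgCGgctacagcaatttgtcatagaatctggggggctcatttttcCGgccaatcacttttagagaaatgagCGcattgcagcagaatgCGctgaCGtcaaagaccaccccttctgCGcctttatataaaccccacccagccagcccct
For Mest they are the 250 bases before an internal start, within an intron of its longer transcripts (chr6:30737800-30738049, plus strand):
Mest: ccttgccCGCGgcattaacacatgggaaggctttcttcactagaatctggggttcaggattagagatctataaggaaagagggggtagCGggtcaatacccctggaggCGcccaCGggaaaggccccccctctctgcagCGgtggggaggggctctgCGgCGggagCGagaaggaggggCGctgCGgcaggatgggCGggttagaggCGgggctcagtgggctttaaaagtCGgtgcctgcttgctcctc
For Grb10 they are the 250 bases before an internal start, in an intron of the annotated gene (chr11:12037421-12037670, minus strand):
Grb10: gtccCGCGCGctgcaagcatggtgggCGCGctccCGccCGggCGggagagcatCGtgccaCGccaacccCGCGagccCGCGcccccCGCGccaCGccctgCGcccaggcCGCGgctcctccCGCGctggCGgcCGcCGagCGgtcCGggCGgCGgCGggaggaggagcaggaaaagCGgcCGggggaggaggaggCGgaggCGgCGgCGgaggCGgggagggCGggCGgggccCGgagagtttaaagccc

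Grb10 held 40 CpG sites in this stretch, more than 98.7% of the 32851 windows of 250 bases before RefSeq starts, whose median was 6. Mest held 14 and Meg3 10, and the shorter stretch of Peg3 held 5. The letters TGCCGC, searched on both strands, occurred 2 times before Mest, once before Meg3 and not in the bases shown for Grb10 and Peg3, and 8.68% of all windows had at least 1 match. A start was listed for 7 of the 10 genes, with 14 windows in all, of which 4 held the hexamer. Among the 4, the windows of Mest begin at chr6:30737800 and chr6:30737803 and overlap almost fully, so the same matches are counted in both. The 3 genes without an entry were H19, Peg10 and Cdkn1c.

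The first question was whether the 10 genes changed together with the state. With limma in one fit of the 4 states, 0 of 10 were called between resistant and parental cells (log2 fold change beyond 1 in either direction and adjusted p below 0.01), where 5.3% of all genes tested were called. Likewise 0 of 10 were called between P12 and resistant cells (2.13% of all genes) and 0 of 10 between P12 and parental cells (0.114%). The comparisons with P5 also called 0 of 10, against 0.378% of all genes for P5 and resistant, 0.0259% for P5 and parental and 0% for P12 and P5. At an unadjusted p below 0.05 there were 2 genes (Plagl1 and Dlk1) between resistant and parental, 2 (Plagl1 and Mest) between P12 and resistant and 1 (Dlk1) between P12 and parental cells, that is 20%, 20% and 10%, against 29.2%, 19.8% and 15.3% of all genes tested. The values of the groups overlapped for 10 of 10 genes in these 3 comparisons, in which the groups of 5.99%, 2.45% and 1.52% of all genes did not. The 3 comparisons share samples in pairs, so their counts are not independent. An adjusted p above the threshold does not show that a gene was unchanged. The standard errors (SE) of the log2 fold changes were large, from 0.95 (Cdkn1c) to 2.63 (Peg3). This fit leaves out the pairing by line, so its SE also hold differences in level between lines. With the line as a block, the SE went from 2.56 to 0.81 for Peg10 and from 2.16 to 1.09 for Grb10.

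**Figure D1:**
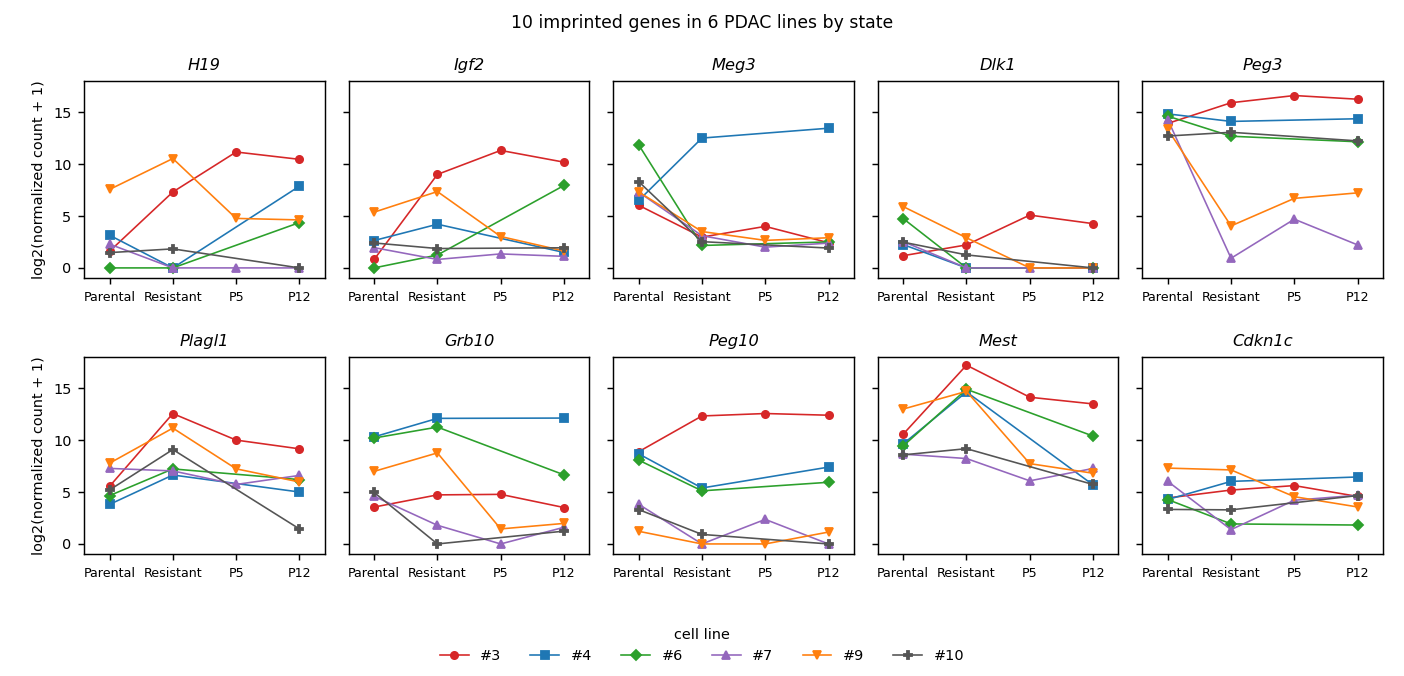
Levels of the 10 imprinted genes by state, as log2(normalized count + 1), with 1 point per sample and the samples of a line joined. Lines cross and spread in each panel: Meg3 is at 10.4 normalized counts or less in 5 resistant lines and at 5840.1 in line #4, and resistant and P12 cells have Peg3 at 149 or less in lines #7 and #9 and at 4562 or more in the others. Mest is at 25644 or more in resistant cells of lines #3, #4, #6 and #9, and at 579 or less in those of lines #7 and #10.

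Across lines the size of the change differed more than for most genes. The SD over the 6 lines of the log2 difference between resistant and parental cells had a median of 2.88 over the 10 genes (1.93 to 6.09), against 0.85 over all genes tested, and for 7 of 10 it lay above the 90th percentile of all genes, 2.52. Between P12 and resistant cells 6 of 10 and between P12 and parental cells 9 of 10 lay above that percentile. The median log2 fold change over the 10 genes was -0.56 between resistant and parental cells, with 4 higher and 6 lower, and -0.0049 over all genes.

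**Figure D2:**
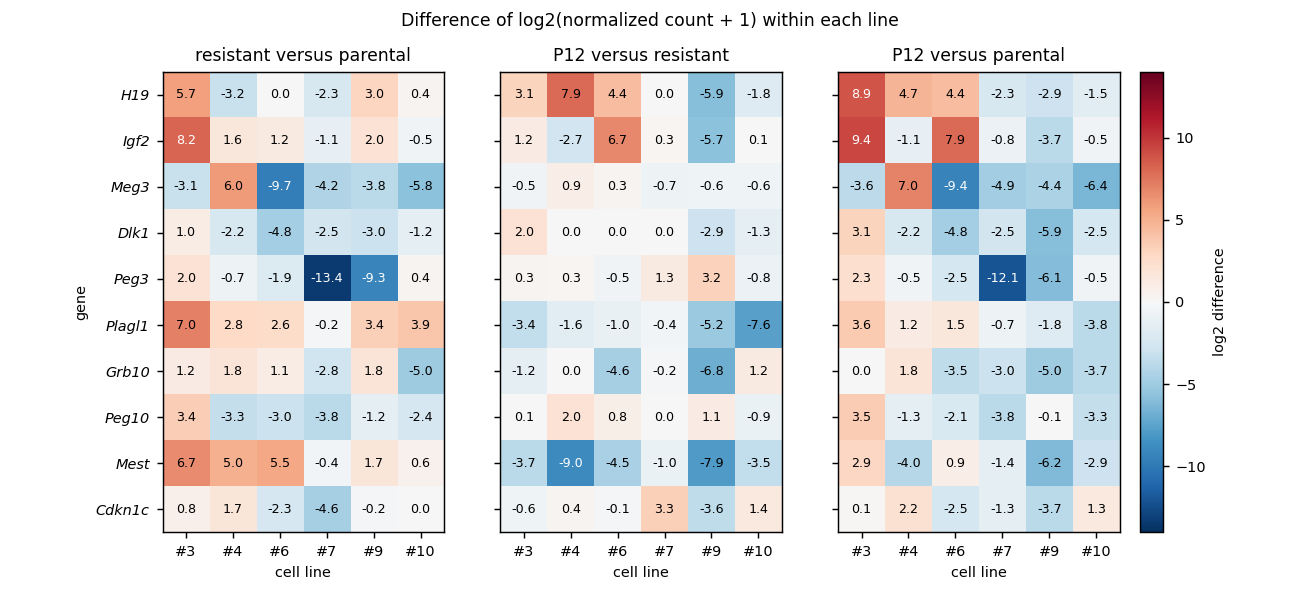
Differences of log2(normalized count + 1) within each cell line, for the 10 genes (rows) and 6 lines (columns), in 3 comparisons; red is higher and blue lower in the state named first. Rows hold both colours: Meg3 is lower in 5 lines and 6.01 higher in line #4 between resistant and parental cells, Peg3 has -13.37 and -9.29 in lines #7 and #9, and Plagl1 and Mest are blue in 6 of 6 lines between P12 and resistant cells.

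H19 is a long noncoding RNA made from the maternal copy (chr7:142575529-142578143, minus strand, GRCm38), and its neighbour Igf2 encodes insulin-like growth factor II, made from the paternal copy (chr7:142650766-142666816, minus strand). In parental cells H19 had a lowest value of 0, a median of 2.97 and a highest of 188 normalized counts, the last in line #9. Resistant cells ranged from 0 over a median of 1.28 to 1486, and P12 from 0 over 21.7 to 1409.6. H19 was thus at 7.89 or less in parental and resistant cells of lines #4, #6, #7 and #10. In P12 it was at 19.7 or more in lines #3, #4, #6 and #9 and at 0 in lines #7 and #10. Line #3 went from 2.04 in parental to 158 in resistant, 2302 in P5 and 1409.6 in P12 cells, while line #9 went from 188 to 1486, 26.3 and 23.7. Line #4 had 7.89, 0 and 234 in parental, resistant and P12 cells. The states overlapped in their ranges, and the log2 fold change between resistant and parental cells was 0.60 (SE 2.23, limma adjusted p = 0.893).

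Igf2 was high in a few samples. Its lowest, median and highest values were 0, 3.59 and 40.4 in parental, 0.762, 10.1 and 514 in resistant, and 1.17, 2.47 and 1168 in P12 cells, and P5 had 2559 (line #3), 1.55 (line #7) and 7.15 (line #9). Line #3 was the highest of each drug-exposed state, line #9 was high in parental and resistant cells only (40.4 and 163, then 7.15 and 2.10), and line #6 had Igf2 in P12 alone (245, after 0 and 1.36). The 2 genes were not always on together: P12 of line #4 had 234 of H19 and 1.82 of Igf2. Between resistant and parental cells Igf2 had a log2 fold change of 1.89 (SE 1.91, limma adjusted p = 0.561). Igf2os, which overlaps Igf2 on the opposite strand, reached 80.9 in P5, and whether the quantification used the strand is not given in the sources used here, so reads of the pair cannot be told apart. Igf2r, the receptor that clears the ligand, had a median of 6903 in parental and 9489 in resistant cells (log2 fold change 0.71, SE 0.40, limma adjusted p = 0.251).

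Meg3 is a maternally expressed long noncoding RNA (chr12:109541001-109571726, plus strand), and Dlk1, expressed from the paternal copy of the same cluster, encodes a membrane protein with EGF-like repeats related to the Notch ligands (chr12:109452823-109463336, plus strand). Meg3 was present in 6 of 6 parental lines, with a lowest value of 64.7, a median of 158 and a highest of 3735 normalized counts (line #6). In resistant cells the values ran from 3.48 over a median of 7.21 to 5840.1, and in P12 from 2.77 over 4.53 to 11280.4. Lines #3, #6, #7, #9 and #10 had 10.4 or less in resistant and 6.49 or less in P12 cells, whereas line #4 went from 89.5 to 5840.1 and 11280.4. P5 had 15.0, 3.00 and 5.29 in lines #3, #7 and #9.

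The log2 fold change of Meg3 between resistant and parental cells was -3.43 (SE 1.88, limma adjusted p = 0.237), and between P12 and parental cells -3.62 (SE 1.88, limma adjusted p = 0.367). Without line #4 these were -5.32 (limma adjusted p = 0.000972) and -5.74 (limma adjusted p = 0.00529), so over the remaining 5 lines Meg3 fell in resistant cells and was also lower in P12 than in parental cells. The fits without a line are among 6 of their kind. This one drops the 1 line in which Meg3 rose, which is also the line whose Y-linked RNAs were lost. The bases printed above for Meg3 precede the start of this RNA. Rian, a noncoding RNA downstream in the cluster, had 21.9, 942 and 1902 in parental, resistant and P12 cells of line #4 and 570.3, 0.653 and 6.10 in those of line #6, the same order as Meg3 in these lines. In line #3 it went the other way, from 21.9 to 139.6 and 27.65 where Meg3 went from 64.7 to 6.83 and 4.38. Over the 6 lines Rian was not called (log2 fold change between resistant and parental cells -1.32, SE 1.49, limma adjusted p = 0.609). Mirg, another neighbour in the cluster, was higher in P12 than in resistant cells in 6 of 6 lines and was not called (2.44, SE 0.99, limma adjusted p = 0.166). In P12 it had 25.1, 85.5, 41.9 and 10.1 in lines #3, #4, #6 and #7 and 1.79 or less in lines #9 and #10.

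Dlk1 was low in all samples. Its lowest, median and highest values were 1.26, 4.69 and 59.1 in parental, 0, 0.692 and 6.47 in resistant, and 0, 0 and 18.2 in P12 cells. It was lower in resistant than in parental cells in 5 of 6 lines and was listed at 0 in P12 of 5 lines, the exception in both being line #3. The log2 fold change between resistant and parental cells was -2.12 (SE 1.01, limma adjusted p = 0.167), on the scale with 1 added, which understates the change of so low a gene. Dio3, at the far end of the cluster, encodes the deiodinase that inactivates thyroid hormone, and it was called lower in resistant than in parental cells (log2 fold change -6.94, SE 1.5, limma adjusted p = 0.0043). It had a median of 673 in parental cells, with 0 in line #9, and was listed at 0 in resistant cells of 5 lines and at 3.33 in line #10. In P12 it was at 34.7 in line #7 and at 1.65 or less in the other 5 lines, and the call was lost when any of lines #3, #4, #6 or #10 was left out.

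Peg3 encodes a large zinc finger protein made from the paternal copy (chr7:6703892-6730431, minus strand). Its parental values were a lowest of 6702, a median of 17836 and a highest of 29403 normalized counts. Resistant cells ranged from 0.906 over a median of 7600.2 to 61832, and P12 from 3.64 over 4699.6 to 78282. Peg3 was abundant in 6 of 6 parental lines and stayed at 4562 or more in resistant and P12 cells of lines #3, #4, #6 and #10, while line #7 went from 20144 to 0.906 and line #9 from 10375 to 15.5. After withdrawal line #7 had 24.9 in P5 and 3.64 in P12, and line #9 had 103 and 149. Line #3 moved the other way, from 15528 to 61832 in resistant, 100139 in P5 and 78282 in P12 cells.

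The log2 fold change of Peg3 between resistant and parental cells was -3.83 (SE 2.63, limma adjusted p = 0.359; 0.0903 with the line as a block). The fit without line #7 gave -1.92. Usp29, a ubiquitin protease gene whose first exon lies on the other side of the 146 bases shown, had 296, 5.40 and 12.2 in parental, resistant and P12 cells of line #7 and 169, 6.09 and 12.1 in those of line #9, so both genes of the pair were low in the same lines. In line #3 Usp29 went from 368 to 653 and 1240.3. Zim1, a neighbouring zinc finger gene made from the maternal copy, had 41.3, 1.25 and 19.4 in line #7, 312, 2.93 and 43.4 in line #9 and 74.0, 1875 and 2679 in line #3, and in line #6 it went from 213 to 8.98 and 2.26, where Peg3 remained at 6604 and 4562. Neither neighbour was called between resistant and parental cells (limma adjusted p = 0.337 for Usp29 and 0.799 for Zim1).

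**Figure D3:**
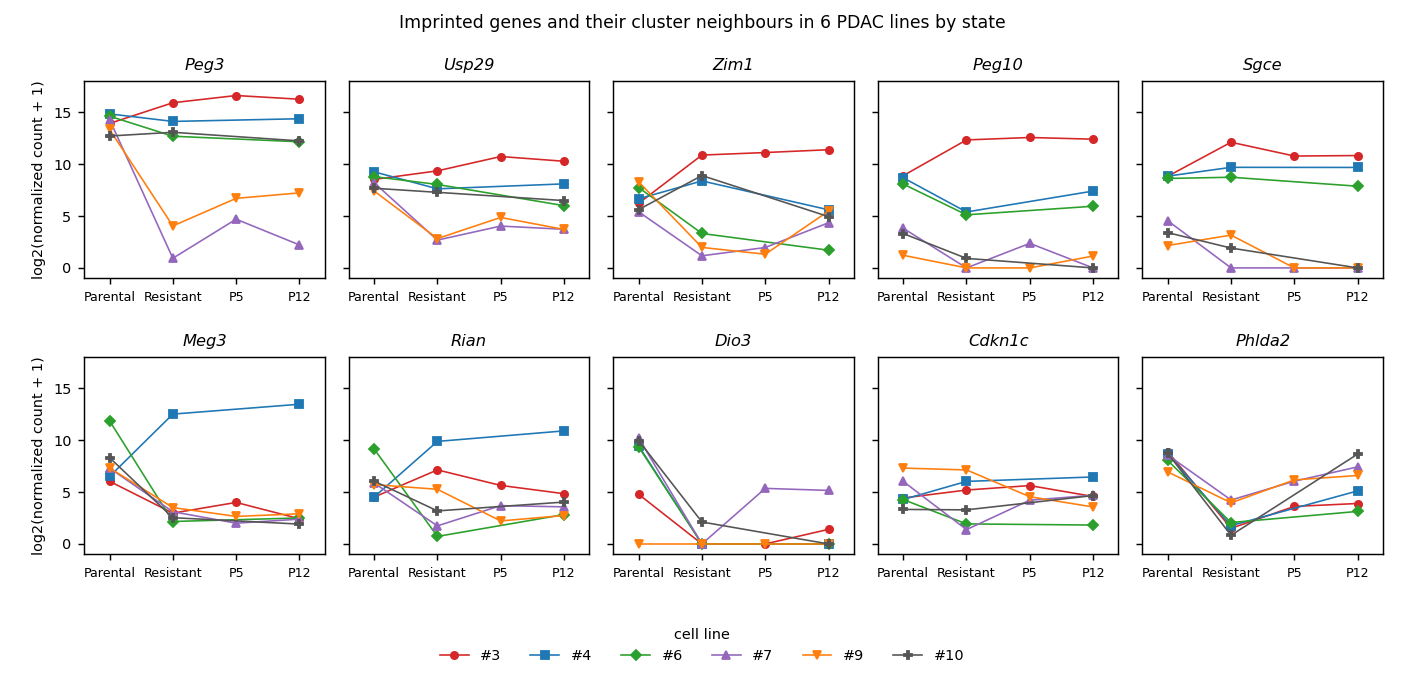
Peg3, Peg10, Meg3 and Cdkn1c beside neighbours of their clusters, as log2(normalized count + 1), with 1 point per sample and the samples of a line joined. Peg3 and Usp29 are low in resistant cells of the same lines, #7 and #9, Sgce is high in the lines in which Peg10 is, Rian is highest in P12 of line #4 as Meg3 is, and Phlda2 falls to 17.8 or less in 6 of 6 resistant lines while Cdkn1c has no common direction.

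Mest encodes an enzyme of the alpha/beta hydrolase fold made from the paternal copy in mesoderm-derived tissue (chr6:30723547-30748465, plus strand). It had a lowest value of 383, a median of 748 and a highest of 8188 normalized counts in parental cells. In resistant cells the lowest was 299, the median 26172 and the highest 153396, and in P12 they were 50.6, 133 and 11534. Resistant cells of lines #3, #4, #6 and #9 had 25644 or more, those of lines #7 and #10 had 299 and 579, and P12 was below the resistant sample in 6 of 6 lines. P5 had 18020.2, 66.7 and 213 in lines #3, #7 and #9.

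Between P12 and resistant cells the log2 difference of Mest within lines was -4.92 ± 2.99 (SD, n = 6 lines). It did not pass in the fit without a covariate (SE 1.67, limma adjusted p = 0.0890) and fell with the cell line as a block (SE 1.10, limma adjusted p = 0.00888), a fit that called 4.52% of all genes tested in this comparison and 10.5% between resistant and parental cells. Between resistant and parental cells the difference was 3.17 ± 2.91, higher in 5 of 6 lines (limma adjusted p = 0.216; 0.0458 with the block). Leaving out any line kept the difference between P12 and resistant cells between -5.71 and -4.11. Copg2, which overlaps Mest on the opposite strand, lay between 993 and 2006 in all 21 samples. The bases before the internal start of Mest are printed above with their 14 CpG sites.

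Plagl1, a zinc finger transcription factor of a network of imprinted growth genes (chr10:13060504-13131694, plus strand), had its highest median in resistant cells, as Mest did. Its lowest, median and highest values were 13, 40.9 and 219 in parental, 99, 348 and 6058 in resistant and 1.73, 67.2 and 574 in P12 cells, and P5 had 1029 (line #3), 52.1 (line #7) and 150.0 (line #9). Resistant cells of lines #3 and #9 were highest, with 6058 and 2293. Line #7 had 154, 130.4 and 96.3 in parental, resistant and P12 cells and 52.1 in P5. P12 was below resistant cells in 6 of 6 lines. Its log2 fold change was 3.24 between resistant and parental cells (SE 1.20, limma adjusted p = 0.0728; 0.0164 with the block) and -3.22 between P12 and resistant cells (limma adjusted p = 0.125; 0.0298 with the block). Neither passed. Between P12 and parental cells it was 0.02 (SE 1.20, limma adjusted p = 0.997), with 3 lines higher and 3 lower.

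Grb10 encodes an adaptor that binds the insulin and IGF1 receptors and dampens their signal (chr11:11930508-12038683, minus strand). Its lowest, median and highest values were 10.7, 78.4 and 1277 in parental, 0, 231 and 4391 in resistant and 1.35, 6.66 and 4483 in P12 cells. Line #4 was the highest in each of these states (1277, 4391 and 4483). Line #6 followed with 1179, 2453 and 100.1, line #9 went from 126 to 436 and 2.94, and lines #3, #7 and #10 had 30.3 or less throughout. P5 had 26.4, 0 and 1.73 in lines #3, #7 and #9. Between resistant and parental cells its log2 fold change was -0.33 (SE 2.16, limma adjusted p = 0.942). Ddc, a neighbour of Grb10 that encodes an amino acid decarboxylase, went from a median of 680.1 to 36.4 and was not called (log2 fold change -1.99, SE 1.23, limma adjusted p = 0.303).

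Peg10 derives from a retrotransposon and encodes Gag- and Pol-like proteins from the paternal copy (chr6:4747306-4760517, plus strand). Its lowest, median and highest values were 1.33, 141 and 473 in parental, 0, 17.3 and 5157 in resistant and 0, 30.9 and 5421 in P12 cells. Lines #3, #4 and #6 had 269 or more in parental cells and 33.7 or more later, with 5157 in resistant, 6070.45 in P5 and 5421 in P12 cells of line #3. Lines #7, #9 and #10 had 13.1 or less in every state. Peg10 was lower in resistant than in parental cells in 5 of 6 lines (log2 fold change -1.71, SE 2.56, limma adjusted p = 0.711). Sgce, which encodes a membrane protein of the sarcoglycan family and starts back to back with Peg10, had 455, 459 and 392 in parental cells of lines #3, #4 and #6 and 22.3, 3.46 and 9.54 in those of lines #7, #9 and #10. In P12 these were 1815, 820.2 and 233 against 0, 0 and 0.

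Peg10 and Grb10 differed between the cell lines. An F test for the line in limma, over the 18 parental, resistant and P12 samples with the state as a factor, called 2 of the 10 genes at an adjusted p below 0.01, Peg10 (limma adjusted p = 0.000604) and Grb10 (limma adjusted p = 0.00608), and 2.23% of all genes tested. P12 cells were grown from the resistant cells of their line, and the 2 correlate more (mean r 0.457) than resistant and parental cells do (0.241). The F test treats these samples as independent, so its p values may be too low. The call of Peg10 held in each alternative that was run, whereas that of Grb10 was lost when any of lines #3, #4, #6, #7 or #10 was left out, without a filter on low values, and without a trend. The line made up 88.5% of the sum of squares of log2 values for Peg10 (jackknife SE 6.90) and 78.8% for Grb10 (14.2), and the state 3.04% and 6.42%. For Peg3 the line share was 57.0% and for H19 54.5%, and neither passed (limma adjusted p = 0.0742 and 0.150). The median line share was 43.1% over the 10 genes and 35.8% over all genes tested, and the median state share was 11.0% and 19.8%.

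The state had its largest shares in Mest (37.2%), Plagl1 (36.3%) and Dlk1 (35.5%). For Meg3 it had 19.7%, and 82.8% without line #4, while the line share of Meg3 went from 41.7% to 3.93%. Among other imprinted genes the F test called Sgce (limma adjusted p = 0.000419), Mcts2 and Sfmbt2.

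**Figure D4:**
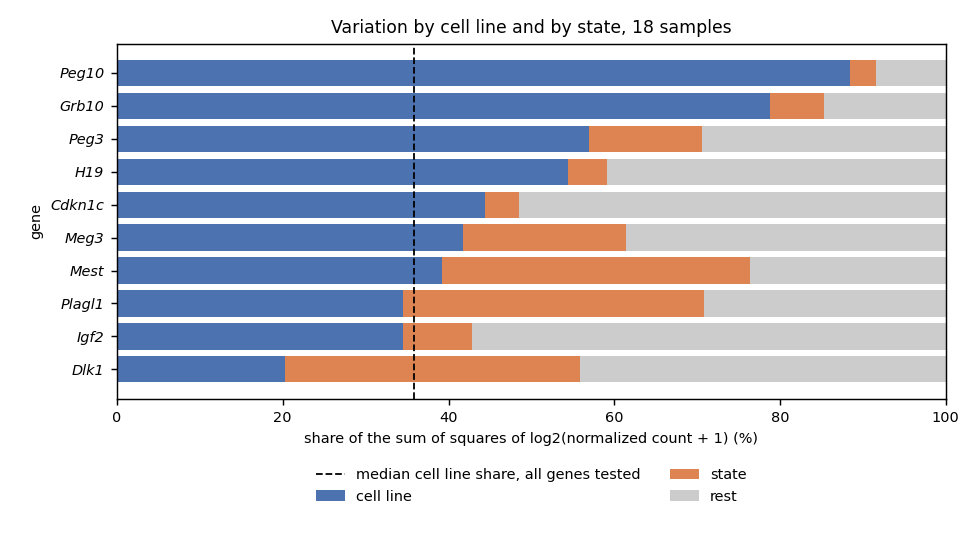
Share of the sum of squares of log2(normalized count + 1) for each of the 10 genes that lies between cell lines (blue), between states (orange) and in the rest (grey), over the 18 parental, resistant and P12 samples. The line share runs from 20.3% (Dlk1) to 88.5% (Peg10), the dashed line marks its median over all genes tested (35.8%), and the state share exceeds 35% for Mest, Plagl1 and Dlk1.

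Cdkn1c encodes p57Kip2, an inhibitor of cyclin-dependent kinases made from the maternal copy (chr7:143458339-143461050, minus strand). Its lowest, median and highest values were 9.03, 19.5 and 158 in parental, 1.6, 22.2 and 139 in resistant and 2.53, 23.6 and 86.7 in P12 cells, and P5 had 48.3, 17.6 and 22.5 in lines #3, #7 and #9. The medians of the states were close, but the lines went apart: line #7 had 64.3, 1.6 and 24.8, line #6 had 18.4, 2.81 and 2.53, and line #4 had 18.5, 64.3 and 86.7. The log2 fold change between resistant and parental cells was -0.78 (SE 0.95, limma adjusted p = 0.637). Its neighbour Phlda2, which restrains growth of the placenta, was called lower in resistant than in parental cells, from a median of 391 to 2.79, with 17.8 or less in 6 of 6 resistant lines (log2 fold change -5.91, SE 0.84, limma adjusted p = 0.000159). In P12 Phlda2 was at 403 in line #10 and 171 in line #7 and at 7.78 to 95.8 in the other 4, and its difference from resistant cells of 3.41 passed with the block (limma adjusted p = 0.00878) and not without it (limma adjusted p = 0.0184). Slc22a18, a transporter gene beside Phlda2, went from a median of 138 to 6.13 (log2 fold change -3.99, SE 1.27, limma adjusted p = 0.0393) and was not called.

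To describe losses and gains without averaging over lines, each gene and line was counted as high at 100 normalized counts or more and as low at 10 or less. Of 26 pairs of one of the 10 genes and a line that were high in parental cells, 4 (15.4%) were low in resistant cells, against 2.43% of such pairs over all genes tested. These were Meg3 in lines #6, #7 and #10 and Peg3 in line #7. All 4 were also low in P12, which held for 33.5% of the lost pairs of all genes. Just outside the limits were Meg3 in line #9, from 159 to 10.4, and Peg3 in line #9, from 10375 to 15.5. For the other imprinted genes the count was 24 of 186 (12.9%), and 13 of the 24 were low in P12. Pairs of 1 gene or 1 cluster share a control region and pairs of 1 line share a sample, so no test was made, and without line #7 there were 2 lost pairs.

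In the other direction, 2 of 17 pairs that were low in parental cells were high in resistant cells (11.8%, against 6.32% over all genes tested), H19 and Igf2 in line #3, and both were high in P12. With limits of 200 and 20, chosen after seeing the data, there were 4 of 20 losses (20%, against 2.40%), of which 3 were low in P12 (75%, against 33.6%), and 1 gain of 22 (4.55%, against 4.05%).

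In the 10 genes P5 and P12 of a line lay nearer to each other than P12 lay to parental cells. Lines #3, #7 and #9 had a median absolute log2 difference between them of 0.83, 0.67 and 0.73, and between P12 and parental cells it was 3.30, 2.41 and 4.08. For all genes tested these medians were 0.28, 0.27 and 0.24, and 0.69, 0.49 and 0.46. In line #9 the 10 genes had a median difference of 4.38 between P12 and resistant cells, against 0.37 in line #7 and 1.20 in line #3. H19, Igf2, Plagl1, Grb10 and Mest of line #9 had gone from 1486, 163, 2293, 436 and 26701 in resistant to 26.3, 7.15, 150.0, 1.73 and 213 in P5 cells. For P5 of lines #7 and #9 one label gives 12 passages, so P5 and P12 of these lines may be of the same passage.

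A further 60 imprinted genes, listed from general knowledge, were all in the table, and 47 passed the filter. Between resistant and parental cells 6 of 47 were called, 2 higher and 4 lower (2.57% and 2.73% of all genes tested), with a median log2 fold change of -0.13. With the block 9 were called, 5 higher and 4 lower, as Cd81, Impact and Zrsr1 were added. That fit called 10.5% of all genes tested, 936 higher and 1081 lower. No direction prevailed in both fits. The higher were Dcn, the matrix proteoglycan decorin and also 1 of the 7 fibroblast markers above (log2 fold change 11.00, SE 1.97, limma adjusted p = 0.0012), and Ampd3, an AMP deaminase (2.55, SE 0.60, limma adjusted p = 0.0076). The lower were Dio3 and Phlda2, described above, Nnat, which encodes the membrane protein neuronatin (-4.92, SE 0.76, limma adjusted p = 0.000339), and Bcl2l1, which encodes the survival protein Bcl-xL (-1.87, SE 0.43, limma adjusted p = 0.00622). Imprinting of Dcn, Ampd3 and Bcl2l1 is limited to some tissues, and their parental copies cannot be told apart here. Without line #3, #4 or #10 the count was 3 (Dcn, Nnat and Phlda2). These were called whichever line was left out. Among the fits without 1 line, Ampd3 was called only without line #6 and Bcl2l1 only without line #9.

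Nnat had a median of 83.6 in parental cells, with 1.78 in line #10 and 36.7 or more in the others, and stayed at 2.36 or less in resistant, P5 and P12 cells. It was the only one of the 47 called between P12 and parental cells (log2 fold change -4.77, SE 0.76, limma adjusted p = 0.0060), a call that was lost without line #3, #4, #6, #7 or #9. Between P12 and resistant cells 0 of 47 were called with limma, and 8 had an unadjusted p below 0.05 (17%, against 19.8% of all genes tested). With the block 2 passed (Dcn, lower, and Phlda2, higher in P12), in a fit that called 4.52% of all genes tested.

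The writers and keepers of methylation were followed as a list of 14 genes, of which 12 passed the filter. Dnmt1, the maintenance methyltransferase, had medians of 10540 in parental, 8274 in resistant and 9063 in P12 cells, and Uhrf1, which brings it to newly copied DNA, had 7630, 5608 and 5677. None of the 12 was called between resistant and parental cells in limma without a covariate, where 2 had an unadjusted p below 0.05 (16.7%, against 29.2% of all genes tested). With the block 1 of 12 was called, Zfp57, lower (log2 fold change -1.14, limma adjusted p = 0.00982, and 0.0742 without the block). That fit called 10.5% of all genes tested. Zfp57 was lower in 5 of 6 lines and higher in line #10 (log2 difference 0.59). Zfp57 had medians of 3699, 1367 and 2800 in parental, resistant and P12 cells. In the other main comparisons 0 of 12 were called with or without the block. A call also needs a log2 fold change beyond 1, which Trim28 of this list did not reach. Trim28 was lower in 6 of 6 lines in resistant than in parental cells (-0.54, limma adjusted p = 0.0129; 0.00581 with the block). The same held in P12 against parental cells (-0.60, limma adjusted p = 0.0474; 0.0175 with the block). Of the 12 genes, 8 were lower and 4 higher in the first comparison and 9 and 3 in the second.

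Partners of the products (11 genes, 11 tested) included the receptor Igf1r, with medians of 5622 in parental and 3489 in resistant cells (log2 fold change -0.33, SE 0.26, limma adjusted p = 0.427). The list had 0 of 11 called between resistant and parental cells, with 5 at an unadjusted p below 0.05 (45.5%, against 29.2% of all genes tested). Igf2bp2, which binds the RNA of Igf2, went from a median of 3763 to 1308 and 4766 in parental, resistant and P12 cells and passed only with the block, lower in resistant than in parental cells (log2 fold change -1.69, limma adjusted p = 0.00155) and higher in P12 than in resistant cells (1.90, limma adjusted p = 0.00151). Without the block the limma adjusted p values were 0.0163 and 0.0155. The fits with it called 10.5% and 4.52% of all genes tested in these comparisons.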

How the data were processed

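RNA of 21 samples was measured by mRNA sequencing (TruSeq Stranded mRNA kit). The deposited table holds signal values, that is DESeq2-normalized gene-level counts: the authors quantified reads with salmon 0.12 against mm10, summed transcripts to genes and normalized with DESeq2 1.18 (per the labels and the methods). Raw counts could not be recovered, since 55.2% to 74.5% of the low values of a sample fell on multiples of one step (tolerance 2% of the step), so no count model was run. Depth was estimated from that step. The state and line of each sample came from the labels, and 1 further allele of the shared genotype is not reported here. Sequencers are not assigned to samples, so no batch was compared.

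Values were taken as log2(value + 1). Genes that reached 10 in 3 or more samples were tested with limma 3.58.1 (R 4.3.3) in one fit of 4 states with a trend and Benjamini-Hochberg adjustment over 19300 genes. The samples of a line share its number and correlate across genes (mean r 0.241 between resistant and parental, 0.457 between P12 and resistant and 0.316 between P12 and parental deviations from state means), and the line as a block was an alternative. Tables were made with pandas 2.3.3 in Python 3.11.15. The limma steps were tested on simulated data, in which genes given a state change had less spread than the 10 genes showed. That does not measure the power for these genes. Gene positions are from GENCODE M21. The 10 genes and all lists were chosen with earlier results of these data known. The text names the 10 genes, fixed neighbours of their clusters, and list genes past the threshold (up to 8 per list and comparison, by size). Genes named for other reasons, such as receptors and methyltransferases, were chosen after their values were seen. Alternatives were pseudocounts of 0.5 and 8, no filter, a mean of at least 100, upper quartile rescaling, the block, no trend, an adjusted p below 0.05, the compared states alone, and each line left out.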

Additional observations from a re-analysis of the deposited data

Results flagged for a closer look

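In 3 of 30 groups of values examined a sample lay far from the other 5 of its state. Meg3 was highest in resistant cells of line #4 with 5840.1 normalized counts, where the next value was 10.4, and again in P12 of line #4 with 11280.4, where the next was 6.49. Dlk1 was highest in P12 of line #3 with 18.2, where the other 5 were listed at 0, so that the gap is the whole range. The measure was the gap to the nearest sample on the log2 scale as a share of the whole range, and chance flags about 1 in 20 groups. The cause was not tested.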

How the results depend on the processing

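Of the alternatives, the block by cell line moved the number of the 10 genes called between P12 and resistant cells from 0 to 1 (Mest, log2 fold change -4.92, now past the threshold). The lines are the same by label, and the block changed no other call among the 10 genes. For the other imprinted genes the count between resistant and parental cells was 11 at an adjusted p below 0.05 against 6, that between P12 and resistant cells was 2 with the block and 2 at an adjusted p below 0.05 against 0, that between P12 and parental cells was 0 with a mean of at least 100, 2 at an adjusted p below 0.05 and 0 with the compared states alone against 1, and that between P5 and parental cells was 1 at an adjusted p below 0.05 against 0. The test for the cell line called 1 of the 10 genes without a filter and 1 without a trend, against 2. Gains from low to high numbered 1 with limits of 200 and 20.

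Leaving out 1 line at a time gave 0 to 1 of the 10 genes between resistant and parental and 0 to 1 between P12 and parental cells (Meg3 without line #4), 1 to 2 for the cell line, 3 to 7 of the other imprinted genes between resistant and parental cells, 0 to 1 between P12 and parental and 0 to 1 between P5 and parental cells. The lost pairs numbered 2 to 4 and the gained pairs 0 to 2, with 0 without line #3. Shares for the cell line ran from 3.93% to 54.9% for Meg3 and from 81.1% to 89.98% for Peg10. Shares for the state ran from 9.50% to 82.8% for Meg3, from 24.9% to 66.9% for Dlk1, from 2.88% to 15.8% for Grb10 and from 1.65% to 14.6% for Peg10.

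Small log2 fold changes turned direction. Between P12 and resistant cells a pseudocount of 8 gave 0.0931 for Igf2, 0.0142 for Dlk1 and -0.0660 for Cdkn1c against -0.03, -0.35 and 0.14, and rescaling to the upper quartile gave 0.0362 for Igf2. Between resistant and parental cells a pseudocount of 8 gave 0.26 for Grb10 against -0.33, and between P12 and parental cells one of 0.5 gave -0.0179 for Plagl1 against 0.02. Without single lines, the change between resistant and parental cells ran from -0.42 to 1.35 for H19, from -0.75 to 0.60 for Grb10 and from -5.32 to -2.17 for Meg3. Between P12 and resistant cells it ran from -0.0464 to 2.71 for H19, from -1.38 to 1.11 for Igf2, from -0.42 to 0.16 for Dlk1 and from -0.50 to 0.88 for Cdkn1c, and between P12 and parental cells from -0.70 to 0.77 for Plagl1 and from -5.74 to -2.48 for Meg3. Apart from the alternatives that leave samples or genes out, the cause was not tested. With 6 lines and changes that differ between them, small shifts of the whole group cannot be seen, and values under about 4 normalized counts are limited by depth.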

Other observations

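The genes most like H19 and Igf2 over the 21 samples, by Pearson's r of log2 values, were listed as a description, since the samples share lines and the same few samples are high. Nfatc4, Apol6, Pcdhb3, Letm2 and Begain had r from 0.90 to 0.863 with H19, and Pacsin1, Gli2, Cldn10, Zfp970 and Rtl1 had r from 0.888 to 0.851 with Igf2. Begain and Rtl1 lie in the Dlk1 and Meg3 region. Rtl1, a retrotransposon-derived gene made from the paternal copy, was at 1.32 or less in parental cells and had 145, 83.9 and 22.0 normalized counts in resistant, P5 and P12 cells of line #3.

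Slc38a4, an imprinted amino acid transporter gene singled out after its values were seen, was high in the 2 lines in which H19 was highest in resistant cells. It had 1.43, 4258, 5566 and 3327 in parental, resistant, P5 and P12 cells of line #3, and 5397, 6305, 4146 and 4456 in those of line #9. In parental, resistant and P12 cells of the other 4 lines it had 33.5 or less.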
